A study of Homo sapiens with 3 samples.

Results

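ABCB1 (NCBI Gene ID 5243) and 9 genes that lie around it on chromosome 7q21 were described in MDA-MB-468 cells (MM468), an epithelial breast cancer line from triple-negative breast cancer (TNBC), and in 2 drug-resistant lines made from it. The 10 genes are DMTF1, TMEM243, CROT, ABCB4, ABCB1, RUNDC3B, SLC25A40, DBF4, SRI and STEAP4, of 46427 genes in the deposited table, and all 10 were found by symbol. The neighbours were chosen by their position, in a list drawn up with fold changes of these same libraries in view: the ABCB1, ABCB4, RUNDC3B, DMTF1 and SRI counts were known to differ between a resistant line and the parental line. Their values are therefore given as a description, without a test.

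MM468 cells were wild type and untreated. Adriamycin-resistant cells were wild-type MM468 cells that survived adriamycin (doxorubicin), an anthracycline, at 10 to 140 nmol/L. Paclitaxel-resistant cells were wild-type MM468 cells that survived paclitaxel, a taxane that stabilizes microtubules, at 2 to 320 nmol/L. Both lines are surviving populations. The sources do not say whether either was 1 clone, or whether drug was in the medium when RNA was taken. Each line was sequenced as 1 library, so no difference has a replicate check, no SD can be given and the cell line cannot be told apart from the library. The counts summed to 32704885 in MM468, 47567927 in adriamycin-resistant and 43242628 in paclitaxel-resistant cells. The 10 most abundant genes held 8.41%, 8.26% and 6.72% of them.

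The labelled cell type was checked against its markers. All 7 epithelial markers, among them EPCAM and KRT8, had 10 or more counts in each library, with summed TPM (a transcript level scaled by gene length and library total) of 9150 in the parental library, 9901 in adriamycin-resistant and 8669 in paclitaxel-resistant cells. Of the receptors that TNBC lacks, PGR had 0, 0 and 7 counts, ESR1 had TPM of 1.69, 2.55 and 1.45, and ERBB2 had TPM of 32.3, 34.6 and 28.1. Summed TPM of 5 fibroblast markers was 7.84, 13.3 and 7.92, nearly all of it COL1A1, while COL1A2 and LUM were at 0 counts in all 3 libraries. Of leukocyte markers, PTPRC had 24, 0 and 44 counts, CD3E 0, 2 and 0, and LYZ 2, 0 and 8. The 3 endothelial markers, PECAM1, CDH5 and VWF, summed to 0.304, 0.408 and 0.386.

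ABCB1 encodes P-glycoprotein, an ATP-driven pump in the plasma membrane that carries many hydrophobic drugs out of the cell, anthracyclines and taxanes among them. It is best known for multidrug resistance in cultured tumor cells and for limiting drug entry at barriers such as the gut and the brain's vessels. Its closest relative, ABCB4, lies beside it and moves phosphatidylcholine into bile in the liver. The other neighbours have roles unrelated to drug transport, apart from SRI (sorcin), a calcium-binding protein that has been linked to multidrug resistance.

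In the RefSeq annotation of GRCh38.p14, ABCB1 lies on the minus strand at chr7:87503017-87713295. Toward the centromere follow ABCB4 at chr7:87365896-87476027 on the minus strand, CROT at chr7:87345664-87399794 on the plus strand, TMEM243 at chr7:87196160-87220587 on the minus strand and DMTF1 at chr7:87152453-87196325 on the plus strand. RUNDC3B, at chr7:87628398-87832296 on the plus strand, begins inside the span of ABCB1 and runs in the opposite direction. Beyond it toward the telomere lie SLC25A40 at chr7:87833568-87876360 on the minus strand, DBF4 at chr7:87876493-87909553 on the plus strand, SRI at chr7:88205115-88226976 on the minus strand and STEAP4 at chr7:88270892-88306894 on the minus strand. The gaps to ABCB1 run from 27.0 kb for ABCB4 to 558 kb for STEAP4.

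RefSeq gives ABCB1 2 start sites, 112.411 kb apart, and the RUNDC3B start lies 27.514 kb from the one at the lower coordinate. The 250 bases before each of these 3 starts are shown because ABCB1 and RUNDC3B had the largest folds of the locus that could be taken against a parental count. They are written 5′ to 3′ on the strand of the gene, from RefSeq (GRCh38.p14). Capitals mark the CCAAT box (CCAAT, or ATTGG on the other strand) and the GC box (GGGCGG, or CCGCCC on the other strand), motifs bound by NF-Y and by SP1-type factors. The first is the window at chr7:87713296-87713545 (minus strand), the second that at chr7:87600885-87601134 (minus strand) and the third that at chr7:87628148-87628397 (plus strand).
ABCB1 upstream start: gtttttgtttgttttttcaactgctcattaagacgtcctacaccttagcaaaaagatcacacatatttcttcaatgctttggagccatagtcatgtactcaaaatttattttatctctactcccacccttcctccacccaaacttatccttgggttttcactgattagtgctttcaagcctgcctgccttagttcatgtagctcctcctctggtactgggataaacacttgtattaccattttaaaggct
ABCB1 downstream start: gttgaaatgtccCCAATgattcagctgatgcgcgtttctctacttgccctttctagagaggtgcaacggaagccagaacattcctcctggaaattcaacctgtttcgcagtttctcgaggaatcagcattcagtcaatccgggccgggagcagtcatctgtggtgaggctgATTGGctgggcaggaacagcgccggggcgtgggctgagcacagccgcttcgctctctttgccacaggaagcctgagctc
RUNDC3B start: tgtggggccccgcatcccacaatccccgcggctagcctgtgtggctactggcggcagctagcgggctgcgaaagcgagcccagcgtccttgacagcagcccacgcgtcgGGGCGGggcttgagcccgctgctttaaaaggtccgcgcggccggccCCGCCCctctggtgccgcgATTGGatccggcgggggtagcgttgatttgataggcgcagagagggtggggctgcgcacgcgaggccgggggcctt

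The upstream ABCB1 window was 39.2% G and C and held neither motif. The downstream window was 55.6% G and C and held 2 CCAAT boxes, the nearer 79 bases before the start, and 0 GC boxes. The RUNDC3B window was 70.8% G and C, with 1 CCAAT box 76 bases and the nearer of 2 GC boxes 95 bases before the start. Of 35116 windows of 250 bases before RefSeq starts, 32.0% held a CCAAT box and 42.6% a GC box, and the median G and C content was 58%. The counts are summed over a gene, so they do not tell which ABCB1 start was used. Windows were found for 9 of the 10 genes. The starts of DBF4 and SLC25A40 lie 133 bases apart and point away from each other. Their windows overlap, and both held 0 CCAAT boxes and the same 2 GC boxes, read on opposite strands.

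ABCB1 was close to the floor in MM468 cells and among the well-expressed genes in both resistant lines. It had 10 counts in MM468, 8374 in adriamycin-resistant and 8171 in paclitaxel-resistant cells, or 0.323, 185 and 171 CPM (counts relative to the library total, scaled between libraries by edgeR's TMM method). Its TPM was 0.124, 71.5 and 86.2, and 18788, 2202 and 2104 genes had a higher TPM in these libraries. The scaled count was 572-fold higher in adriamycin-resistant than in MM468 cells, with a 95% interval of 311 to 1194, and 530-fold higher in paclitaxel-resistant cells, with an interval of 288 to 1105. The bounds come from the binomial split of 2 counts (exact, Clopper-Pearson) and hold no biological variation. Their width comes from the 10 parental counts. In a bulk library, more RNA per cell and more expressing cells cannot be told apart. Among genes with at least 1 count in MM468 cells, 0 of 17473 had a larger fold than ABCB1 in adriamycin-resistant cells and 0 of 18007 in paclitaxel-resistant cells. A further 477 and 1092 genes had 0 parental counts, and their folds have no upper limit.

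Between the resistant lines, ABCB1 differed little. The paclitaxel-resistant scaled count was 0.926 times the adriamycin-resistant one (95% interval 0.898 to 0.955), and its TPM was higher in paclitaxel-resistant cells, 86.2 against 71.5. The direction thus depended on the scaling: the log2 ratio was -0.11 with TMM and between -0.14 and 0.27 over 10 alternatives, above 0 in 5 of them.

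**Figure D1:**
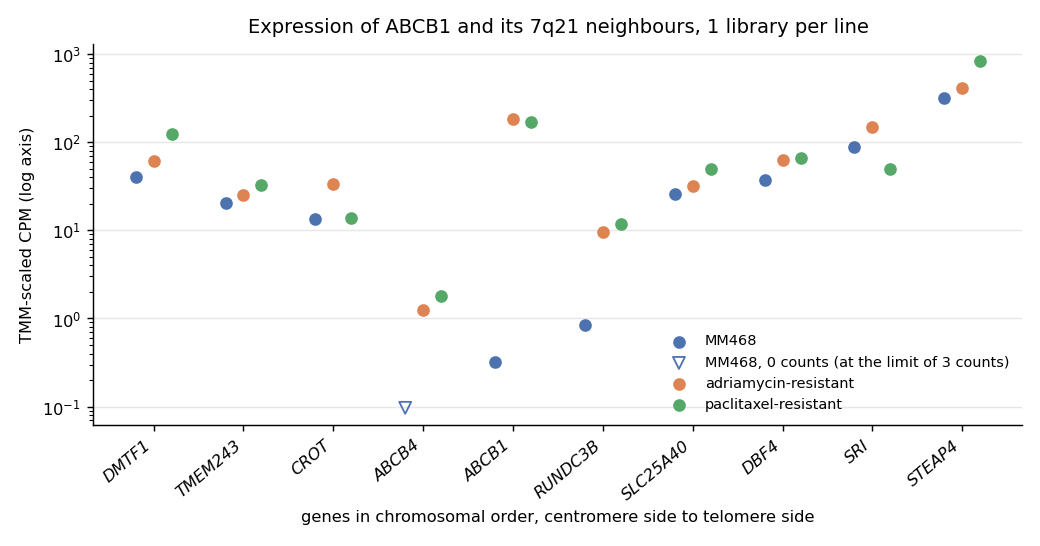
TMM-scaled CPM (log axis) of the 10 genes in chromosomal order, with 1 point for the 1 library of each line and no error bars. ABCB1, ABCB4 and RUNDC3B sit near the bottom in MM468 cells, with ABCB4 drawn at the limit of 3 counts, and above it in both resistant lines, while the other 7 genes were expressed in all 3 libraries.

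The genes that overlap or adjoin ABCB1 were also much higher in both resistant lines. RUNDC3B, a RUN-domain protein, had 26 counts in MM468, 435 in adriamycin-resistant and 565 in paclitaxel-resistant cells, or 0.839, 9.59 and 11.8 CPM. By scaled counts it was 11.4-fold higher in adriamycin-resistant cells (95% interval 7.70 to 17.7) and 14.1-fold higher in paclitaxel-resistant cells (9.51 to 21.8), values that fell with a pseudocount of 1, and 1.23-fold higher in paclitaxel-resistant than in adriamycin-resistant cells (1.09 to 1.40). ABCB4 had 0 counts in MM468, 57 in adriamycin-resistant and 87 in paclitaxel-resistant cells, or 0, 1.26 and 1.82 CPM. Against a limit of 3 parental counts it was at least 13.0-fold higher in adriamycin-resistant and at least 18.8-fold higher in paclitaxel-resistant cells. Between the resistant lines it was 1.45-fold higher in paclitaxel-resistant cells (1.03 to 2.06).

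Both stayed far below ABCB1 per length. ABCB1 TPM was 133 times ABCB4 TPM in adriamycin-resistant cells and 91.3 times in paclitaxel-resistant cells, and it was 14.9 and 11.1 times RUNDC3B TPM. In MM468 cells the order of ABCB1 and RUNDC3B was the opposite, with RUNDC3B counts at 260% of the 10 ABCB1 counts. As a share of ABCB1 counts, RUNDC3B stood at 5.19% in adriamycin-resistant and 6.91% in paclitaxel-resistant cells, and ABCB4 at 0.681% and 1.06%.

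Reads shared with ABCB1 bear on these 2 genes. In the GENCODE v29 transcripts, 0 exon bases are shared by ABCB1 (5806 bases) and RUNDC3B (4710 bases), and 0 words of 25 bases in RUNDC3B occur in ABCB1. Of the 25-base words of ABCB4, 3.24% occur in ABCB1, and of its 100-base words 0.284%. The library kit keeps strand, but whether the counting used it is not given in the sources used here, and the part of ABCB1 reads in the RUNDC3B and ABCB4 counts was not tested.

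Toward the centromere the resistant lines did not share one profile. DMTF1, a Myb-like transcription factor of the ARF and p53 pathway, had 1253 counts in MM468, 2775 in adriamycin-resistant and 5905 in paclitaxel-resistant cells, or 40.4, 61.2 and 123 CPM. It was 1.51-fold higher in adriamycin-resistant cells (1.42 to 1.62), 3.06-fold higher in paclitaxel-resistant cells (2.87 to 3.25) and 2.02-fold higher in paclitaxel-resistant than in adriamycin-resistant cells (1.93 to 2.11). TMEM243, a transmembrane protein whose gene meets the end of DMTF1, had 632, 1145 and 1547 counts, 20.4, 25.2 and 32.4 CPM. Its folds were smaller than those of DMTF1, at 1.24 in adriamycin-resistant (1.12 to 1.37) and 1.59 in paclitaxel-resistant cells (1.45 to 1.74). The annotated exons of the pair share 178 bases on opposite strands.

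CROT, the peroxisomal carnitine octanoyltransferase that handles shortened fatty acids, lies between this pair and ABCB1 and was at least 2-fold higher in adriamycin-resistant cells alone. It had 418 counts in MM468, 1515 in adriamycin-resistant and 667 in paclitaxel-resistant cells, or 13.5, 33.4 and 13.9 CPM. It was 2.48-fold higher in adriamycin-resistant cells (2.22 to 2.77). In paclitaxel-resistant cells its fold over MM468 was 1.03, and the interval of 0.914 to 1.17 includes 1, although by library size alone the log2 fold change of 0.05 became 0.27, outside it. Paclitaxel-resistant cells were 2.39-fold lower than adriamycin-resistant cells (2.18 to 2.63). CROT overlaps the span of ABCB4 on the opposite strand, and their exons share 0 bases.

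Toward the telomere, the genes next to RUNDC3B were moderately higher in both resistant lines. SLC25A40, a mitochondrial carrier that imports glutathione, had 792 counts in MM468, 1450 in adriamycin-resistant and 2362 in paclitaxel-resistant cells, or 25.5, 32.0 and 49.4 CPM. Its fold was 1.25 in adriamycin-resistant (1.15 to 1.37) and 1.93 in paclitaxel-resistant cells (1.78 to 2.10). DBF4, the regulatory subunit of the CDC7 kinase that starts DNA replication, had 1160, 2881 and 3155 counts, or 37.4, 63.5 and 66.0 CPM. DBF4 was the most alike of the 10 between the resistant lines after scaling by TMM, with folds over MM468 of 1.70 (1.58 to 1.82) and 1.76 (1.65 to 1.89) and a paclitaxel-resistant to adriamycin-resistant fold of 1.04 whose interval of 0.988 to 1.09 includes 1. The exons of DBF4 and SLC25A40 share 142 bases on opposite strands.

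The 2 outermost genes lay on opposite sides of their MM468 level in paclitaxel-resistant cells. SRI had 2747 counts in MM468, 6818 in adriamycin-resistant and 2396 in paclitaxel-resistant cells, or 88.6, 150 and 50.1 CPM. It was 1.70-fold higher in adriamycin-resistant cells (1.62 to 1.77) and 1.77-fold lower in paclitaxel-resistant cells (1.67 to 1.87), so that the paclitaxel-resistant level was 0.333 times the adriamycin-resistant level (0.318 to 0.349). STEAP4, a metalloreductase of iron and copper, was the neighbour with the most counts, at 9785, 18977 and 39664, or 316, 418 and 829 CPM. It was 1.33-fold higher in adriamycin-resistant (1.29 to 1.36) and 2.63-fold higher in paclitaxel-resistant cells (2.57 to 2.69).

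**Figure D2:**
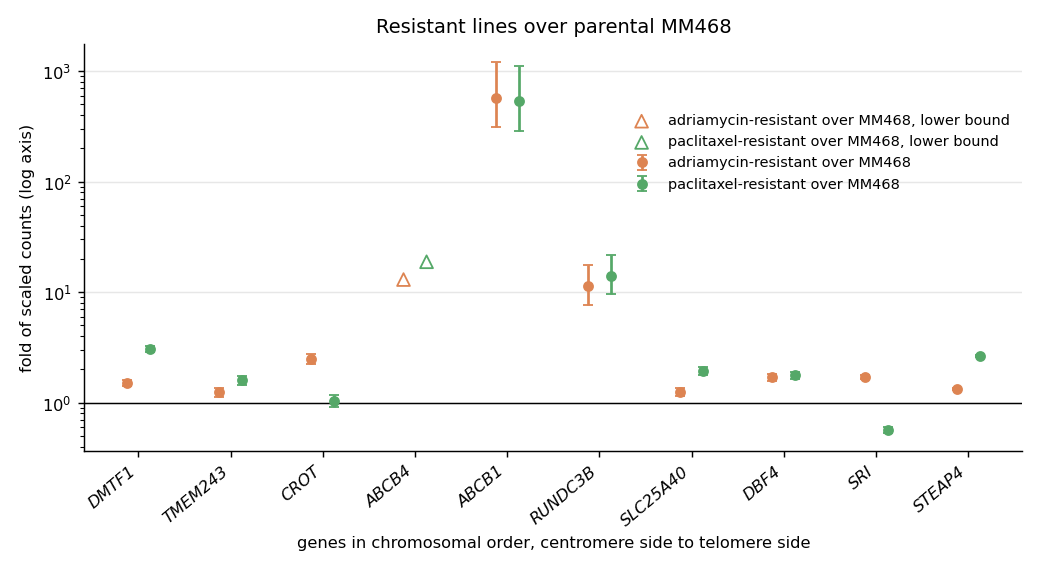
Fold of TMM-scaled counts over MM468 (log axis) for the 10 genes in chromosomal order in adriamycin-resistant and paclitaxel-resistant cells, where bars are exact binomial 95% intervals for counting error and triangles are lower bounds for ABCB4 against 3 counts. ABCB1 stands at 572 and 530, RUNDC3B at 11.4 and 14.1, and every other gene but ABCB4 at or below 3.06, with SRI in paclitaxel-resistant cells the 1 point below the line of no difference.

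By TPM, the order of the 10 genes changed mostly around ABCB1. SRI (98.6), STEAP4 (66.1) and TMEM243 (34.7) led in MM468 cells, with ABCB1 ahead of ABCB4 alone. SRI (158), STEAP4 (84.2) and ABCB1 (71.5) led in adriamycin-resistant cells, and STEAP4 (217), ABCB1 (86.2) and DMTF1 (74.9) in paclitaxel-resistant cells. RUNDC3B, at 0.418, 4.79 and 7.75, and ABCB4, at 0, 0.537 and 0.944, remained at the low end in all 3 libraries. Without replicates, no spread tells which neighbours in this order differ.

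Counted by a change of at least 2-fold, 4 of the 10 genes (CROT, ABCB4, ABCB1 and RUNDC3B) were higher in adriamycin-resistant than in MM468 cells and 0 were lower. Of the 17950 genes with 10 or more counts in either library, 11.0% passed 2-fold upward and 11.2% downward. In paclitaxel-resistant cells 5 (DMTF1, ABCB4, ABCB1, RUNDC3B and STEAP4) were higher and 0 lower, beside 20.5% higher and 13.5% lower of 19099 genes. The 10 genes were listed with such results known, so nothing is read from these counts. All 10 passed the count minimum in each comparison, ABCB4 through the resistant libraries alone. The median log2 fold change of the 10 was 0.76 in adriamycin-resistant and 1.17 in paclitaxel-resistant cells, beside 0.03 and 0.07 over all genes tested. With library size as the only scaling, the median of all genes in paclitaxel-resistant cells shifted by 0.22, and 71.2% in place of 60.4% of the changed genes were higher.

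The profile along the locus was then set between the resistant lines directly. DMTF1 alone passed 2-fold upward from adriamycin-resistant to paclitaxel-resistant cells, beside 20% of 19327 genes, and CROT and SRI passed it downward, beside 13.3%. DMTF1, at 2.02, and STEAP4, at 1.98 (1.95 to 2.02), lie on either side of the 2-fold line. TMEM243 was 1.28-fold (1.19 to 1.38) and SLC25A40 1.55-fold (1.45 to 1.65) higher in paclitaxel-resistant cells. The median log2 ratio of the 10 genes was 0.33, beside 0.07 over all genes. With library size as the only scaling, 2 of the 10 were at least 2-fold higher, the median of all genes shifted by 0.21, and 71.4% in place of 60.1% of the changed genes were higher in paclitaxel-resistant cells. While ABCB1 differed by 0.926-fold between the lines, genes 103 kb (CROT) and 492 kb (SRI) from it were lower in paclitaxel-resistant cells and genes 307 kb (DMTF1) and 558 kb (STEAP4) from it were higher.

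**Figure D3:**
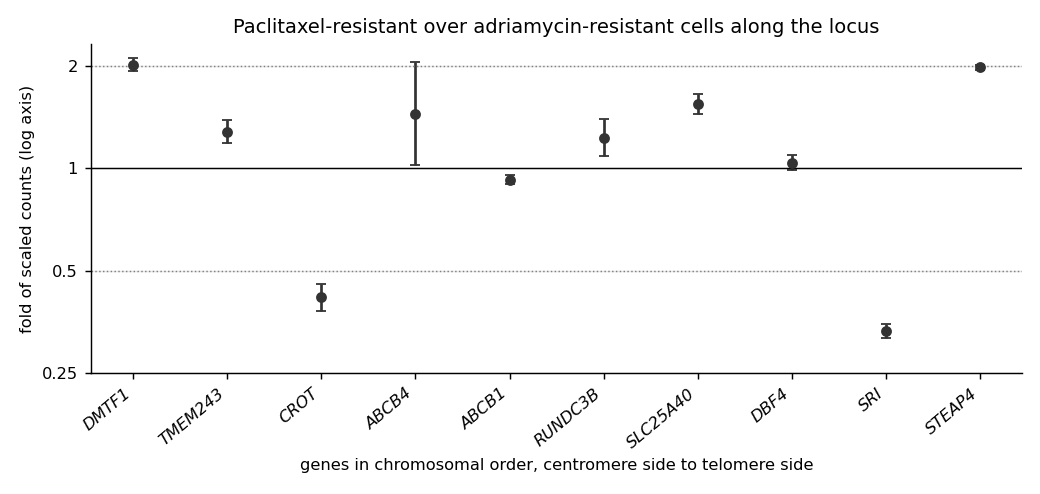
Fold of TMM-scaled counts in paclitaxel-resistant over adriamycin-resistant cells (log axis) for the 10 genes in chromosomal order, with exact binomial 95% intervals for counting error and dotted lines at 2-fold. CROT (0.418) and SRI (0.333) lie below the lower line, DMTF1 (2.02) and STEAP4 (1.98) at the upper line, and ABCB1 (0.926) and DBF4 (1.04) close to 1.

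A further 5 genes of the table lie within 1 Mb of ABCB1 with 10 or more counts in a library. TP53TG1, a noncoding RNA gene between TMEM243 and CROT, had 52, 193 and 167 counts and log2 fold changes of 1.34 in adriamycin-resistant and 1.06 in paclitaxel-resistant cells. ADAM22, a neuronal adhesion protein gene between DBF4 and SRI, had 265, 541 and 388 counts, with 0.48 and -0.08. LOC105375384 had 0, 23 and 66 counts and ELAPOR2 0, 0 and 53, at least 14.3-fold and 11.5-fold higher in paclitaxel-resistant than in MM468 cells. LOC101927420 had 38, 43 and 129 counts, with log2 fold changes of -0.37 and 1.14. Here too, the lines differed from gene to gene.

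Distance on the annotated chromosome groups more genes around ABCB1, among those with 10 or more counts in either library compared. Leaving ABCB1 out, the median log2 fold change in adriamycin-resistant cells was 0.76 over 13 genes under 1 Mb away, 9 of them the listed neighbours, 0.83 over 23 genes at 1 to 5 Mb, 0.29 over 246 genes at 5 to 20 Mb and 0.10 over 632 genes on the rest of chromosome 7. In paclitaxel-resistant cells it was 1.10 over 14 genes, 0.95 over 25, 0.69 over 259 and 0.10 over 654. In paclitaxel-resistant cells the order of the nearer windows depended on where they were divided. With windows of 0.5, 3 and 10 Mb the medians were 0.76, 0.90, 0.45 and 0.15 in adriamycin-resistant and 1.06, 1.39, 1.12 and 0.25 in paclitaxel-resistant cells, so that the second window, already the highest in adriamycin-resistant cells, was the highest in both lines. The rest of the chromosome was lowest in both lines under either division. At least 2-fold higher were 5 of the 13 and 6 of the 23 nearest genes in adriamycin-resistant cells, beside 11.0% of all genes, and 8 of the 14 and 11 of the 25 in paclitaxel-resistant cells, beside 20.5%. At least 2-fold lower were 3 of the 23 genes at 1 to 5 Mb in adriamycin-resistant cells and 0 in the other 3 cases, beside 11.2% and 13.5% of all genes. Most genes of the nearest window were listed with such results known, and some genes at 0 parental counts, such as ABCB4 and LOC105375384, passed the minimum only through a resistant library, so nothing is read from these counts. Between paclitaxel-resistant and adriamycin-resistant cells the medians were 0.45, 0.26, 0.35 and 0.02.

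The sides of ABCB1 were looked at apart after these values had been seen. From 1 to 5 Mb toward the telomere the lines were near each other, with medians of 0.86 over 19 genes in adriamycin-resistant and 0.95 over 20 genes in paclitaxel-resistant cells. In these, 6 of 19 and 9 of 20 genes passed 2-fold upward and 0 downward, beside 11.0% and 20.5% higher and 11.2% and 13.5% lower over all genes. From 5 to 10 Mb toward the telomere they were not, with 0.11 over 17 genes in adriamycin-resistant and 1.05 over 23 genes in paclitaxel-resistant cells. From 1 to 5 Mb toward the centromere, where few genes were expressed, the medians were -1.38 over 4 genes and 0.37 over 5. From 5 to 10 Mb toward the centromere they were 0.89 over 8 genes and 2.32 over 12. The latter rested on genes with few or 0 parental counts, such as MAGI2 and CACNA2D1: it was 1.91 with such genes at their bound, and 1.32 over the 9 genes with 100 or more counts in a library.

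Among genes with 100 or more counts at 1 to 5 Mb, the highest over both lines were CFAP69, FZD1, GATAD1, KRIT1 and RBM48. CFAP69, a gene of the sperm flagellum and cilia, had 7, 50 and 142 counts. FZD1, a Wnt receptor, had 444, 1421 and 1283 counts and log2 fold changes of 1.13 in adriamycin-resistant and 0.91 in paclitaxel-resistant cells. GATAD1 (0.80 and 1.23), KRIT1 (0.86 and 1.09) and RBM48 (0.77 and 1.14) differed between the lines by at most 0.43 on that scale. The lowest were SEMA3E, SEMA3A, CYP51A1, AKAP9 and PCLO. SEMA3E and SEMA3A, secreted semaphorins, were lower in adriamycin-resistant cells alone, with SEMA3A at 308, 152 and 1197 counts and SEMA3E at 768, 329 and 1387. CYP51A1, a sterol demethylase of cholesterol synthesis, had log2 fold changes of 0.24 and -0.38, AKAP9 of 0.09 and 0.59, and PCLO of 0.60 and 0.37. CDK6, a G1 cyclin-dependent kinase 4892 kb from ABCB1 and chosen after its values were seen, had 1348, 1093 and 8257 counts. Its log2 fold change was -0.85 in adriamycin-resistant and 1.99 in paclitaxel-resistant cells.

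**Figure D4:**
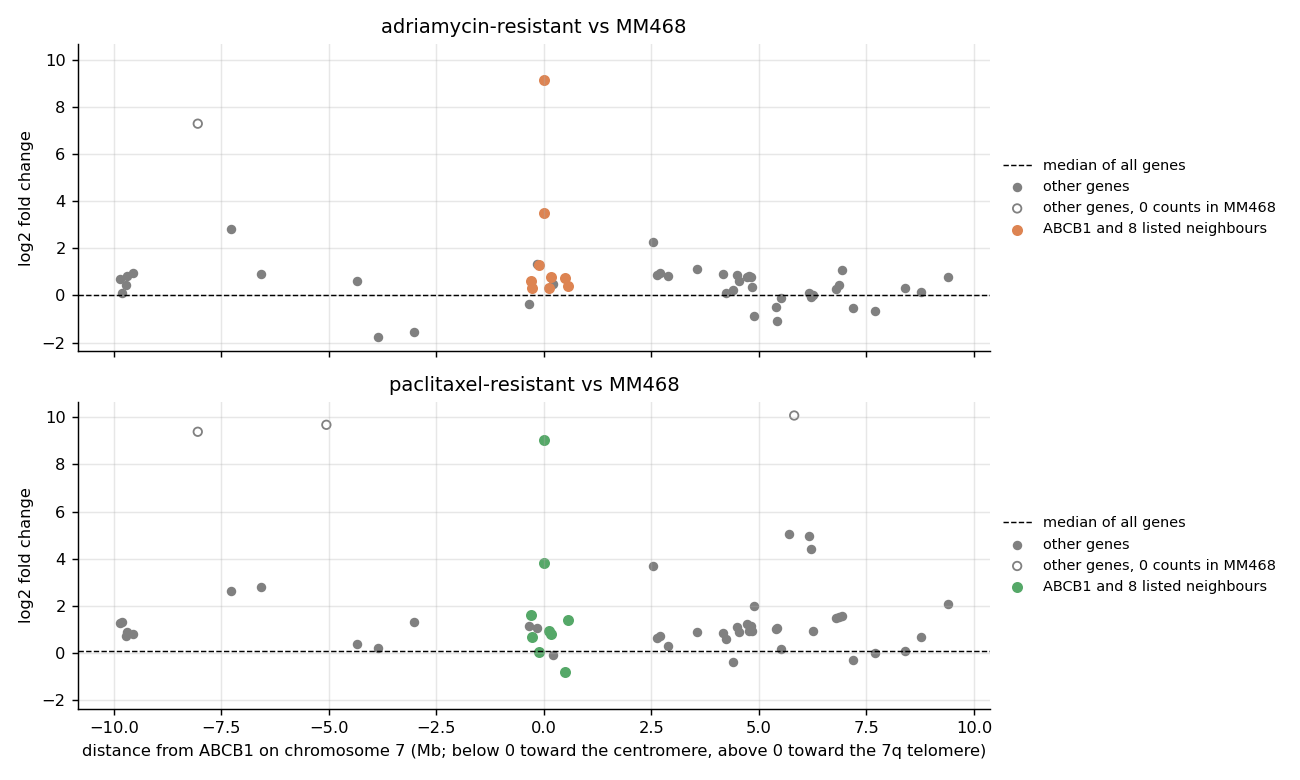
Log2 fold change over MM468 of genes within 10 Mb of ABCB1 with 100 or more counts in 1 library, by distance in Mb, for adriamycin-resistant (top) and paclitaxel-resistant cells (bottom), where ABCB4 falls under that minimum and open circles have 0 counts in MM468 cells, so that their height depends on the prior count. ABCB1 stands at 9.15 and 9.04 and RUNDC3B at 3.51 and 3.81, and from 5 to 10 Mb toward the telomere the medians over genes with 10 or more counts are 0.11 in the top and 1.05 in the bottom panel.

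Genes known to act on ABCB1 transcription or chromatin were listed with it. Of the 32, 30 passed the count minimum. In adriamycin-resistant cells 0 were at least 2-fold higher and 5 lower: EGR1, an immediate early factor (log2 fold change -2.38), KAT2B, an acetyltransferase (-1.68), NFYC, a subunit of the CCAAT-binding NF-Y (-1.62), FOS of AP-1 (-1.21) and HDAC1, a deacetylase (-1.19). Over all genes the shares were 11.0% higher and 11.2% lower. In paclitaxel-resistant cells 0 were higher and VDR, the vitamin D receptor, was lower (-1.02), beside 20.5% and 13.5% of all genes. VDR only just passed: the interval of its fold was 0.461 to 0.525, and its TPM was 31.8 in MM468 and 19.1 in paclitaxel-resistant cells. The medians of the 30 were -0.26 and -0.35. NR1I2 and NR1I3, the xenobiotic receptors PXR and CAR that induce ABCB1 in liver and gut, had 0 counts in all 3 libraries, where up to 3 counts could go unseen. Between the resistant lines KAT2B (2.57), EGR1 (1.61) and NFYC (1.11) were higher and TCF7L2 of the Wnt pathway (-1.01) lower in paclitaxel-resistant cells, beside 20% and 13.3% of all genes. TCF7L2 only just passed, with an interval of its fold of 0.453 to 0.543. YBX1, a Y-box factor, had 38269, 32694 and 45636 counts, or 1234, 721 and 954 CPM. Its log2 fold changes over MM468 were -0.78 in adriamycin-resistant and -0.37 in paclitaxel-resistant cells.

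Of the 11 genes of the ABCB subfamily, 10 passed the minimum. ABCB1 and ABCB4 were joined by ABCB11, the bile salt export pump, as at least 2-fold higher in both lines, beside 11.0% and 20.5% of all genes. ABCB11 had only 3, 11 and 40 counts, and the interval of its 2.51-fold difference in adriamycin-resistant cells, 0.662 to 14.0, includes 1. TAP1, the peptide transporter of antigen presentation, was at least 2-fold lower in both, with log2 fold changes of -1.64 in adriamycin-resistant and -1.29 in paclitaxel-resistant cells, 1 of 10 genes in each beside 11.2% and 13.5% of all genes. The 6 mitochondrial and lysosomal or peptide-carrying members left (ABCB6 to ABCB10 and TAP2) were within 2-fold in both lines, and ABCB5 had 0, 0 and 2 counts. TAP2 and ABCB6 were only just within it in paclitaxel-resistant cells, where the intervals of their folds over MM468 were 0.480 to 0.522 and 0.462 to 0.554. The median of the 10 was 0.19 in adriamycin-resistant and -0.50 in paclitaxel-resistant cells.

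The 5 genes with 100 or more counts whose pair of fold changes over MM468 lay nearest to that of ABCB1 were FAM189A1, MKX, LOC105373551, TEK and IL18R1. All 5 had 0 counts in MM468 cells, so their fitted values, and hence their order of likeness over these 3 libraries, depend on the prior count. FAM189A1 had 108 counts in adriamycin-resistant and 89 in paclitaxel-resistant cells, MKX 73 and 112, LOC105373551 113 and 113, TEK 59 and 110, and IL18R1 143 and 79. None came near the 8374 and 8171 counts of ABCB1.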

How the data were processed

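RNA from MM468 cells and from each resistant line was made into 1 library per line with the TruSeq Stranded mRNA kit and sequenced and analysed by Macrogen Japan. The submitters' processing notes name Trimmomatic 0.39, HISAT2 2.2.1, StringTie 2.2.1 and GRCh38, without roles or settings. The authors deposited 1 table of 46427 genes with read counts that were not normalized, with FPKM and TPM of their own computation beside them. TPM summed to 1000000 in each library.

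edgeR 4.0.16 in R 4.3.3 was used on the counts. TMM factors (0.948, 0.954 and 1.11) were computed over the 3 libraries, a gene entered a comparison with 10 or more counts in either of its libraries, and a prior count of 0.125 was used in the log2 fold changes. The methods name no test for the RNA-seq. edgeR's quasi-likelihood test has no residual degrees of freedom with 1 library per line, so no p-value is given and a gene is called changed at 2-fold. The 95% intervals are exact (Clopper-Pearson), from the binomial split of 2 counts, and cover counting error alone. A count of 0 was set to a limit of 3 counts, or 0.0968, 0.0661 and 0.0627 TMM-scaled CPM in the 3 libraries. The computation of the log2 fold changes was tested on simulated counts.

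The members, lists and comparisons were chosen with earlier results of these data known. Named are all 10 members, genes with 10 or more counts within 1 Mb of ABCB1, the 5 highest and 5 lowest by mean log2 fold change at 1 to 5 Mb and the 5 nearest to ABCB1 in both fold changes (100 or more counts each), and changed regulators of ABCB1. Distances and sequences come from RefSeq (GRCh38.p14), matched by Gene ID for 44698 genes, and exon overlaps from GENCODE v29. The settings varied were the scaling (size factors of DESeq2 1.42.0, library size alone, TMM on the 2 libraries compared), the prior count (2), the minimum (none or 100 counts), the threshold (4-fold), the unit (TPM or FPKM, pseudocount 1 or 0.1) and the windows (0.5, 3 and 10 Mb). Figures were drawn with matplotlib 3.10.9. The result of 1 cell type marker is not reported here.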

Additional observations from a re-analysis of the deposited data

Results flagged for a closer look

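Looked through were 68 genes compared in both lines: the genes of the locus, the genes named within 5 Mb of it, the 5 nearest in pattern to ABCB1, the ABCB1 regulators and the ABCB subfamily. For 12 of them, the library of one resistant line lay above MM468 cells and that of the other below, with both counting intervals clear of no difference. The cell type markers were not looked through for this. CDK6, 1 of the 12, was added after its values were seen. The share over all genes is not given, so nothing is read from the number 12. LOC101927420, ADAM22 and CEBPB also had opposite signs, but the interval of 1 of their 2 folds included no difference. With 1 library per line, none of these differences was tested, and their log2 ratios of paclitaxel-resistant over adriamycin-resistant cells are given as values. SRI, at the telomere end of the locus, had a ratio of -1.58, from log2 fold changes over MM468 of 0.76 in adriamycin-resistant and -0.82 in paclitaxel-resistant cells. It is the 1 gene of the 10 at the locus with opposite directions. CYP51A1, on the same side at 4399 kb from ABCB1, had a ratio of -0.62 (0.24 and -0.38). On the centromere side, SEMA3A, at 3010 kb, had a ratio of 2.90 (-1.57 and 1.33), and SEMA3E, at 3854 kb, a ratio of 2.00 (-1.77 and 0.23). CDK6, on the telomere side at 4892 kb, had a ratio of 2.84 (-0.85 and 1.99). In the list of ABCB1 regulators, the acetyltransferase KAT2B had a ratio of 2.57 (-1.68 and 0.90) and TCF7L2 a ratio of -1.01 (0.17 and -0.84), while the smaller ratios were those of JUN, at 0.81 (-0.43 and 0.39), NFYB, at -0.55 (0.42 and -0.14), KMT2A, at 0.39 (-0.17 and 0.22), and NFKB1, at 0.30 (-0.14 and 0.16). For NFYB the direction in paclitaxel-resistant cells depended on the unit, since its TPM was higher there than in MM468 cells, 69.8 against 61.3. ABCB8, of the ABCB subfamily, had a ratio of -1.13 (0.56 and -0.57).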

How the results depend on the processing

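No paired analysis was possible because each line has a single library. Of 297 recomputed log2 fold changes of the 10 genes, 193 stayed within the counting interval, 104 moved outside it and 0 of those past 2-fold changed sign. ABCB4 has no value at a minimum of 100 counts. The fold of ABCB1 shrank with a pseudocount, since its parental level is near 0: from 9.15 in adriamycin-resistant cells to 6.01 (TPM, pseudocount 1), 4.92 (FPKM, 1) and 7.68 (FPKM, 0.1), and from 9.04 in paclitaxel-resistant cells to 6.28, 5.05 and 7.80. RUNDC3B likewise went from 3.51 to 2.03 (TPM, 1) and 1.39 (FPKM, 1) in adriamycin-resistant cells, and from 3.81 to 2.63 and 1.78 in paclitaxel-resistant cells. ABCB4, at 0 parental counts, lost its 2-fold call at a pseudocount of 1, with 0.62 (TPM) and 0.30 (FPKM) in adriamycin-resistant and 0.96 and 0.45 in paclitaxel-resistant cells. Of the 10 genes, 4 were higher in adriamycin-resistant than in MM468 cells with TMM and 3 with a minimum of 100, with TPM or FPKM at 1 and at 4-fold, and 5 were higher in paclitaxel-resistant than in MM468 cells with TMM, 7 by library size and with TPM or FPKM at 0.1, 6 with TPM at 1, and 3 at 4-fold. Between paclitaxel-resistant and adriamycin-resistant cells, 1 was higher with TMM, 2 by library size, with a minimum of 100, with TPM at 1 and with FPKM at either pseudocount, 3 with TPM at 0.1, and 0 with TMM on the 2 libraries or at 4-fold, while the 2 lower genes became 1 with TPM at either pseudocount or FPKM at 1, and 0 at 4-fold. Numbers of all genes changed depend on the minimum and the threshold. In adriamycin-resistant against MM468 cells, 1981 higher and 2019 lower became 4337 and 3751 with no minimum, 808 and 1045 with a minimum of 100, 707 and 1085 with TPM at 1, 460 and 663 with FPKM at 1, and 878 and 711 at 4-fold. In paclitaxel-resistant against MM468 cells, 3924 and 2569 became 7035 and 3869 with no minimum, 1706 and 1565 with a minimum of 100, 2607 and 1055 with TPM at 1, 1374 and 882 with FPKM at 1, and 1998 and 872 at 4-fold, and the lower genes 1580 and 1586 with TPM and FPKM at 0.1. In paclitaxel-resistant against adriamycin-resistant cells, 3869 and 2565 became 6666 and 4087, 1797 and 1540, 1334 and 781 (FPKM at 1) and 1783 and 815 (4-fold), and the lower genes 871 and 1446 with TPM at 1 and 0.1 and 1517 with FPKM at 0.1. Median log2 fold changes by distance kept their sign over MM468 cells. Between the resistant lines, the median at 1 to 5 Mb of 0.26 was -0.08 with windows of 0.5, 3 and 10 Mb, and that of the rest of the chromosome -0.02 with TMM on the 2 libraries compared. With windows of 0.5, 3 and 10 Mb, those of the third window became 0.45 (adriamycin-resistant against MM468), 1.12 (paclitaxel-resistant against MM468) and 0.89 (paclitaxel-resistant against adriamycin-resistant), that of the second 1.39 in paclitaxel-resistant cells, and that of the rest of the chromosome 0.25. At 5 to 20 Mb the paclitaxel-resistant median of 0.69 became 0.92 by library size, 0.98 with TPM and 0.81 with FPKM at 0.1, and the paclitaxel-resistant to adriamycin-resistant median of 0.35 became 0.56, 0.68 and 0.51, 0.57 with TPM at 1 and 0.49 with no minimum. On the rest of the chromosome the adriamycin-resistant median of 0.10 became 0.035 and 0.044 with TPM at 1 and 0.1. There the paclitaxel-resistant median of 0.10 became 0.32 by library size, 0.32 and 0.41 with TPM at 1 and 0.1 and 0.33 with FPKM at 0.1, and the paclitaxel-resistant to adriamycin-resistant median of 0.02 became 0.23, 0.29, 0.37 and 0.23, and 0.13 with FPKM at 1. Apart from the pseudocount on ABCB1, RUNDC3B and ABCB4, the causes were not tested. Depth limits ABCB4 and the parental ABCB1 and RUNDC3B levels most, at 0, 10 and 26 counts.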
